A study of Mus musculus with 70 samples.

Results

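Oxidative phosphorylation genes of the nuclear genome were followed across 70 RNA-seq libraries from mice that lack the short (Cic-S-KO) or the long (Cic-L-KO) isoform of the transcriptional repressor Capicua, encoded by Cic, and from WT littermates of both lines, which the submitters pooled as controls. Members were all protein-coding genes whose symbol starts with Ndufa, Ndufb, Ndufc, Ndufs, Ndufv, Uqcr, Atp5 or Cox4 to Cox8, together with Sdha, Sdhb, Sdhc and Sdhd. The deposited table held 88 of the 94 genes that this rule finds in GENCODE M21, among 50789 identifiers in all. The remaining 6 were not analysed here. By the prefix of the symbol alone, 34 members were assigned to complex I, 3 to complex II, 8 to complex III, 17 to complex IV and 18 to complex V, and 8 were Ndufaf genes, which encode assembly factors of complex I and match the rule by prefix only. Counts per complex below follow this assignment, which was not checked against the place of each protein.

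Lung came from pups at postnatal day 6, whereas both brain regions came from adults of 12 weeks. Each of the 9 groups of tissue and genotype had 8 libraries, except Cic-S-KO cortex and Cic-S-KO cerebellum with 7 each. The sources used here name no promoter, Cre or other agent, and the labels do not state which libraries came from one animal, so p-values measure the spread between these libraries. The lung libraries carried batch label 1 and all brain libraries batch label 2, so age, batch and tissue cannot be told apart between lung and brain. Libraries held 17798655 to 35523037 counted reads of polyA-selected RNA. Summed lung epithelium markers reached at least 18602 CPM (counts scaled to library size) in every lung library and at most 234 CPM in any brain library. Gene-level counts of Cic cover both isoforms and cannot check the genotype labels. The Cic level in lung was 139 ± 11.3 CPM in WT (SD, n = 8), 172 ± 10.5 in Cic-S-KO (n = 8) and 135 ± 5.62 in Cic-L-KO (n = 8). In cortex it was 162 ± 8.62 in WT (n = 8), 251 ± 7.64 in Cic-S-KO (n = 7) and 298 ± 17.0 in Cic-L-KO (n = 8). In cerebellum the Cic means were 192 ± 14.5, 213 ± 14.6 and 212 ± 13.2 CPM in that order.

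Oxidative phosphorylation passes electrons from NADH and succinate along complexes I to IV of the inner mitochondrial membrane to oxygen, and complex V, the ATP synthase, makes ATP from the proton gradient that builds up. Subunits come from both genomes: a small core is encoded by mitochondrial DNA, all of complex II and most other subunits by the nucleus. Neurons depend on the pathway for ion pumping, and several complex IV subunits exist as pairs of genes, one expressed broadly and one mainly in muscle, lung or testis. Many of these genes encode very short mRNAs. The principal transcript of the members had a median length of 795 bases (range 360 to 4715), against 2754 to 2796 bases for the other genes tested in the 3 tissues.

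Members took 0.623% ± 0.0276 of the counts in WT lung (SD, n = 8), 0.799% ± 0.0246 in WT cortex (n = 8) and 0.984% ± 0.0314 in WT cerebellum (n = 8). Per kilobase of principal transcript, Atp5b, the catalytic beta subunit of ATP synthase, had the highest level of any member in WT lung (344 ± 14.6 CPM per kb), WT cortex (634 ± 23.0) and WT cerebellum (834 ± 15.1). Cox6a1, a structural subunit of cytochrome c oxidase, had 270 ± 17.3, 512 ± 48.0 and 454 ± 32.3 CPM per kb in the same order. At the other end, Cox8c was listed at 0 in all WT libraries and the entry Atp5o-readthrough at 0 in all 70 libraries, while Cox7b2 reached at most 2.04 CPM per kb in any group mean. A filter on low counts kept 85 members in lung, 84 in cortex and 86 in cerebellum.

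Tests compared genotypes within a tissue with edgeR's quasi-likelihood test, and a member is called where its p, adjusted by the Benjamini-Hochberg method over all genes tested in that tissue, lay under 0.05. Differences are log2 fold changes, with WT or the second group named as the reference. Both knockouts of a tissue were compared with the same WT libraries, so their results are not independent of each other.

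**Figure D1:**
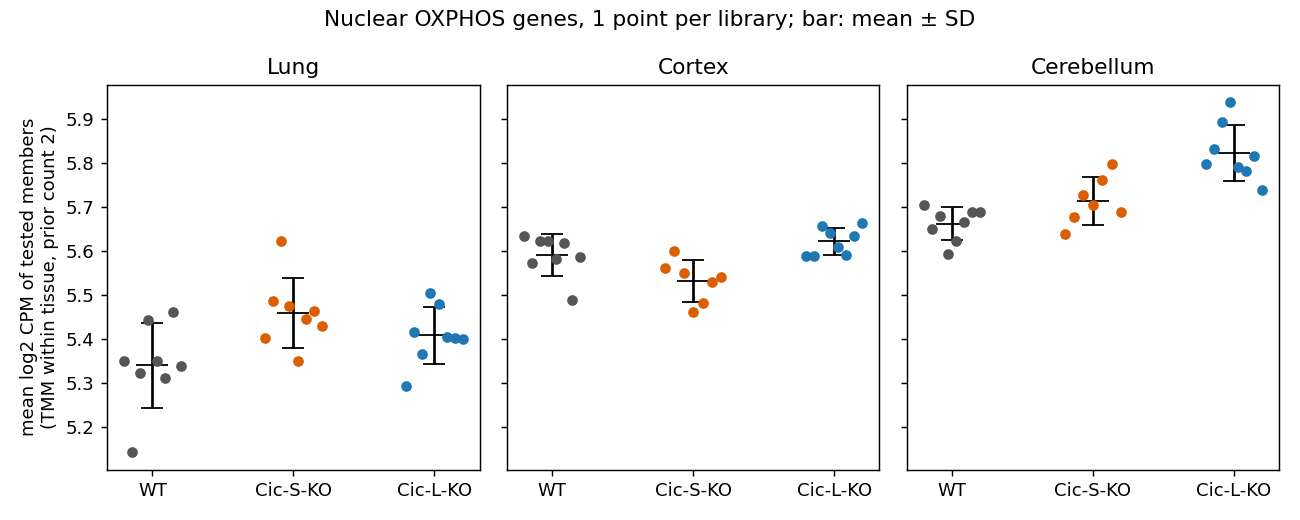
Mean log2 CPM of the tested members in each library (y axis) by genotype (x axis) in lung, cortex and cerebellum; points are libraries, bars mean ± SD. In cerebellum the Cic-L-KO libraries (5.74 to 5.94) all lie above the WT libraries (5.59 to 5.71), and in lung and cortex the genotypes overlap.

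The cerebellum of Cic-L-KO mice held the most calls of the 6 comparisons with WT. Of 86 members tested, 45 rose and none fell (52.3% called, against 21.5% of all genes tested, 10.9% higher and 10.6% lower). The median difference was 0.14 on the log2 scale, a fold of 1.10, against 0.00 for all genes tested, and 79 members had a positive difference. The mean over members was 5.66 ± 0.037 log2 CPM in WT (SD, n = 8), 5.71 ± 0.054 in Cic-S-KO (n = 7) and 5.82 ± 0.064 in Cic-L-KO (n = 8). For 12 members every Cic-L-KO library lay above every WT library of 86, against 2.31% of all genes. All 5 complexes contributed, with 20 of 34 members of complex I, 1 of 3 of complex II, 5 of 8 of complex III, 10 of 16 of complex IV and 9 of 17 of complex V called higher, while none of the 8 assembly factor genes was called (1 of them had an unadjusted p under 0.05).

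In complex I, Ndufc1, a small accessory subunit of the membrane arm (ENSMUSG00000037152.11), was measured in WT cerebellum at 30.0 CPM in the lowest library, 30.9 at the median and 32.7 in the highest. In Cic-L-KO it was 33.0, 37.4 and 41.2 CPM, so the groups did not overlap, with a difference of 0.26 (SE 0.044, edgeR adjusted p = 0.000129). Ndufb10, another accessory subunit of that arm, ran from 117 through a median of 127 to 137 CPM in WT. It ran from 137 through 147 to 164 CPM in Cic-L-KO, where the lowest library lay just under the highest WT library (difference 0.23, SE 0.039, edgeR adjusted p = 0.000141). Ndufa8, of the same arm, had 89.3, 92.9 and 96.2 CPM in WT and 97.2, 105 and 114 CPM in Cic-L-KO, with no overlap (0.19, SE 0.033, edgeR adjusted p = 0.000198). The core subunit Ndufv1, which carries the NADH binding site, moved less (0.10, SE 0.032, edgeR adjusted p = 0.0202).

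Complex II is both a member of the chain and an enzyme of the citric acid cycle. Its iron-sulfur subunit Sdhb rose from 97.7, 107 and 121 CPM (lowest, median and highest library) in WT to 114, 121 and 135 CPM in Cic-L-KO cerebellum. These ranges overlapped, and the difference was 0.19 (SE 0.042, edgeR adjusted p = 0.00197). The flavoprotein subunit Sdha did not pass the test (0.06, edgeR adjusted p = 0.137).

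In complex III, the small subunits had the largest differences. Uqcrq, a subunit that borders cytochrome b, had 67.5, 74.2 and 79.2 CPM in WT and 82.1, 87.6 and 96.9 CPM in Cic-L-KO, with all knockout libraries above all WT libraries (0.28, SE 0.050, edgeR adjusted p = 0.000248). Uqcrh, the acidic hinge protein beside cytochrome c1, had 87.0, 99.6 and 107 CPM against 108, 116 and 133 CPM, again without overlap (0.25, SE 0.045, edgeR adjusted p = 0.000305). Uqcr11, a further small subunit, overlapped slightly, with 50.5, 59.0 and 67.3 CPM in WT and 66.2, 71.9 and 77.4 CPM in Cic-L-KO (0.28, SE 0.049, edgeR adjusted p = 0.000174). The core subunit Uqcrc1 rose by 0.15 (edgeR adjusted p = 0.00131), and the Rieske iron-sulfur protein Uqcrfs1 missed the threshold at 0.09 (edgeR adjusted p = 0.0519).

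The 4 members with the largest differences belonged to complex IV. Cox6b2 (ENSMUSG00000051811.14, minus strand, GRCm38.p6 chr7:4751792-4753094), the testis isoform of subunit 6b, had 6.08, 7.15 and 7.86 CPM in WT cerebellum and 10.9, 11.5 and 14.3 CPM in Cic-L-KO. All knockout libraries lay above all WT libraries, at a difference of 0.76 (SE 0.088, edgeR adjusted p = 1.1e-06). Cox7a1, the heart and muscle isoform of subunit 7a, had 3.62, 4.43 and 5.28 CPM against 5.05, 7.02 and 8.32 CPM, with slight overlap (0.61, SE 0.11, edgeR adjusted p = 0.000266). The muscle isoforms Cox6a2 (0.78) and Cox8b (1.20) were also called, at median levels of 1.30 and 0.599 CPM in WT. Of 10 cardiac and skeletal muscle markers tested, none was called by edgeR in this comparison (0 at an unadjusted p under 0.05), and their summed level was 205 to 283 CPM in WT and 211 to 277 CPM in Cic-L-KO.

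The widely expressed complex IV subunits rose by smaller amounts. Cox4i1, the main form of the regulatory subunit 4, had 253, 280 and 305 CPM in WT and 299, 333 and 358 CPM in Cic-L-KO cerebellum, with overlap (0.24, SE 0.045, edgeR adjusted p = 0.000468). Cox6c had 140, 157 and 164 CPM against 170, 184 and 225 CPM, without overlap (0.28, SE 0.054, edgeR adjusted p = 0.000522). Cox7b, a small subunit needed for assembly of the complex, had 76.6, 84.6 and 88.3 CPM against 91.5, 97.4 and 110 CPM, also without overlap (0.24, SE 0.044, edgeR adjusted p = 0.000266). Cox5a (0.16) and Cox7a2 (0.22) were called, whereas Cox6a1 (0.08), Cox6b1 (0.08), Cox8a (-0.05), Cox4i2 (-0.17) and Cox7a2l (-0.04), a factor of supercomplex assembly, were not.

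In complex V, Atp5b (ENSMUSG00000025393.12, plus strand, chr10:128083273-128090391) had 1505, 1580 and 1593 CPM in WT and 1633, 1654 and 1714 CPM in Cic-L-KO cerebellum. The groups did not overlap although the difference was small (0.09, SE 0.027, edgeR adjusted p = 0.0188). Atp5k, a small membrane subunit at the dimer interface, had 29.5, 34.0 and 36.8 CPM against 37.5, 39.4 and 52.0 CPM, without overlap (0.29, SE 0.062, edgeR adjusted p = 0.0012). Atp5e, the epsilon subunit of the rotor stalk, had 56.8, 63.6 and 67.8 CPM against 67.0, 75.4 and 85.9 CPM, with slight overlap (0.28, SE 0.056, edgeR adjusted p = 0.000622). The catalytic alpha subunit Atp5a1 did not pass (0.04, edgeR adjusted p = 0.384). Of the 3 genes that encode the identical mature c-ring subunit, Atp5g1 (0.17) and Atp5g3 (0.14) rose and Atp5g2 was at -0.08 (edgeR adjusted p = 0.137).

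**Figure D2:**
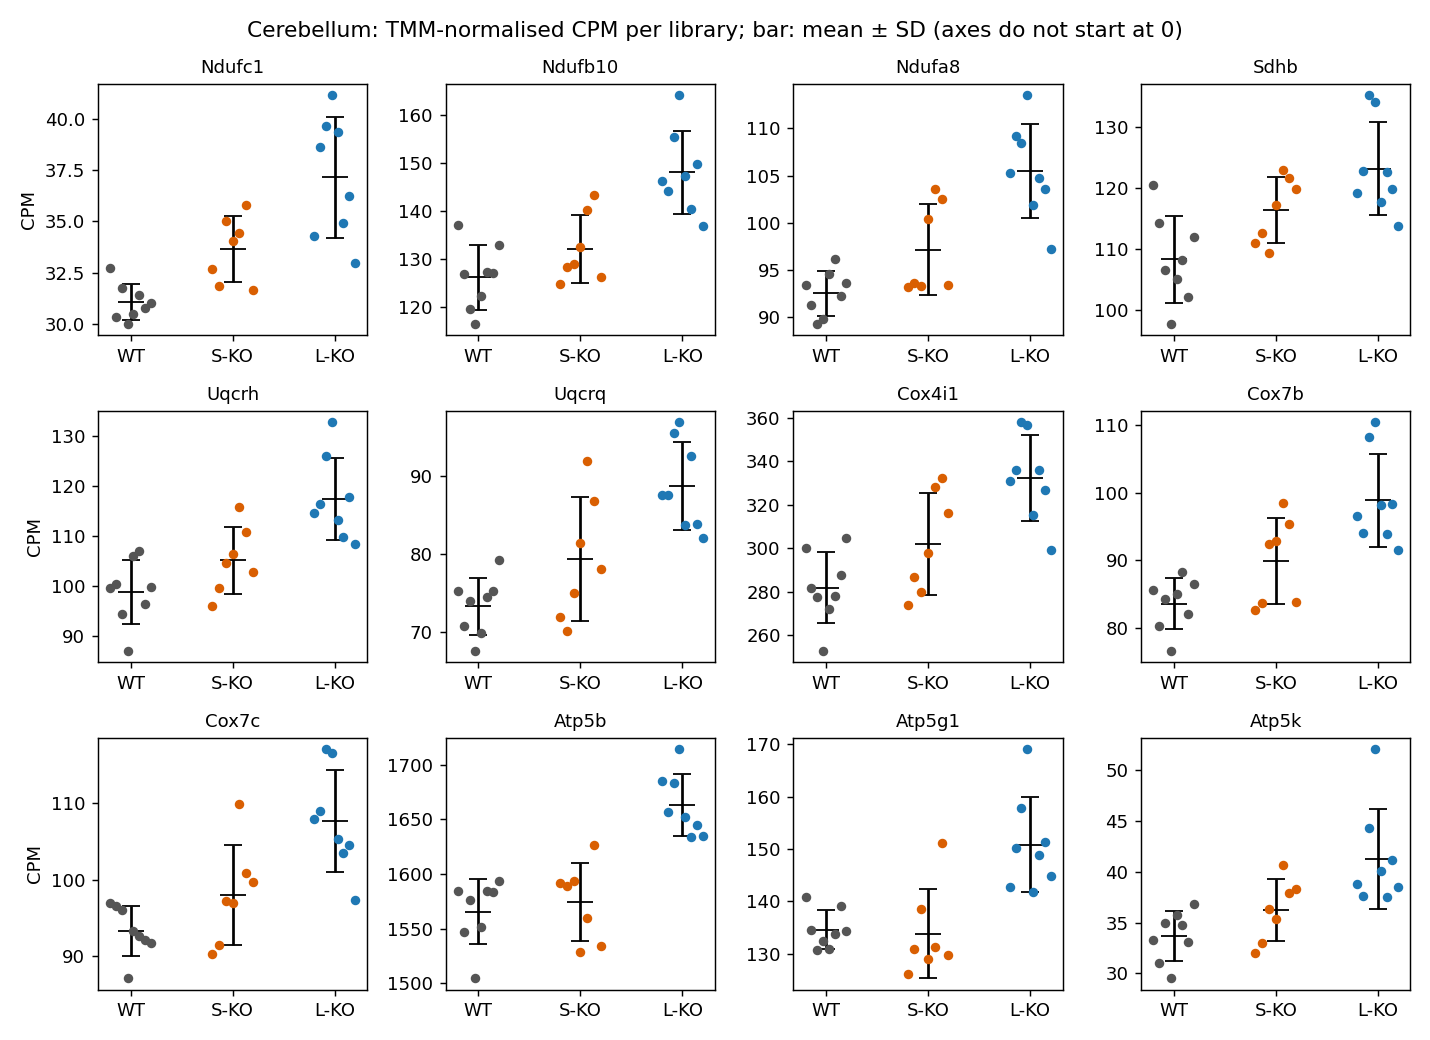
TMM-normalised CPM (y axis, not starting at 0) of 12 members in each cerebellum library by genotype (x axis); points are libraries, bars mean ± SD. Atp5b lies at 1505 to 1593 CPM in WT and 1633 to 1714 CPM in Cic-L-KO, and at 1528 to 1627 CPM in Cic-S-KO.

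Other mitochondrial genes were read in the same comparison. Of 17 citric acid cycle genes, 10 rose and none fell, led by Pdha1 of pyruvate dehydrogenase (0.25, edgeR adjusted p = 8.98e-06) and citrate synthase Cs (0.19, edgeR adjusted p = 2.01e-05), with a list median of 0.11. Of 18 table entries for glycolysis genes, 10 rose and 1 fell, among them Eno1 (0.22, edgeR adjusted p = 1.47e-05). Of 15 electron carrier genes, Etfa (0.22) and Cycs (0.21), which encodes cytochrome c, rose. Of 13 subunits encoded by mitochondrial DNA, 3 rose, with mt-Co3 at 0.28 (edgeR adjusted p = 0.000854) and mt-Nd3 at 0.47. Since libraries were polyA selected, these transcripts were captured only as far as they carry a tail.

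The mitochondrial ribosome, by contrast, showed 6 higher and 2 lower of 72 genes, with a median of 0.04, and the cytosolic ribosome 3 higher and 4 lower of 76, with a median of 0.00. Among 13 regulators of mitochondrial gene expression, 3 rose and 6 fell. Esrra, an orphan nuclear receptor that binds promoters of respiratory genes, rose by 0.24 (edgeR adjusted p = 8.45e-06), and its coactivator Ppargc1a by 0.23 (edgeR adjusted p = 0.000181). Gabpb1, a subunit of the ETS factor NRF-2, decreased by 0.21 (edgeR adjusted p = 0.00321), and Yy1 decreased by 0.19 (edgeR adjusted p = 0.000735). Esrra was the regulator called higher in Cic-L-KO in each tissue, at 0.21 in lung (edgeR adjusted p = 0.0365) and 0.12 in cortex (edgeR adjusted p = 0.0106). It was called higher in Cic-S-KO lung too (0.23, edgeR adjusted p = 0.00856), where Ppargc1b rose (0.47) and Gabpa fell (-0.21).

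Markers of other cell types moved in the Cic-L-KO cerebellum as well. Of 6 endothelial markers 5 rose, and their summed level was 59.6 to 90.2 CPM in WT and 105 to 126 CPM in Cic-L-KO, without overlap. Of 10 pericyte and smooth muscle markers 5 rose, with sums of 118 to 146 CPM against 160 to 195 CPM, where Tagln was near 0 in both groups. Of 8 neuronal markers 2 rose and 4 fell, with sums of 5642 to 6406 CPM against 5274 to 5862 CPM. Choroid plexus markers ranged from 28.0 to 3024 CPM in WT and 440 to 3371 CPM in Cic-L-KO. The part of these cell types in the member differences was not tested, and in bulk tissue fewer cells of a type and less RNA per cell cannot be told apart.

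Since promoters of members that moved together can be read beside these values, the 250 bases before the start site were searched on both strands for letters of known motifs. RefSeq start sites on GRCm38.p6 were found for 73 of the 88 members, with 78 promoters in all. The NRF1 motif CGCANGCG was in 21 of them, 26.9%, against 6.76% of 32851 promoters of all genes. By member, it was in 9 of the 39 with a start site that rose in Cic-L-KO cerebellum and in 11 of the 34 tested that were not called, so motif carriers were found on both sides of the call. The letters TGAATGAA, TGAATGGA, TCAATGAA or TCAATGGA, the octamers that Capicua is known to bind, were in 2 member promoters, 2.56%, against 3.19% of all promoters. The following stretches show both octamer matches and 5 of the NRF1 matches in members that rose, with the motif in capitals, from 5′ to 3′ on the strand of the gene.
Ndufc1, minus strand, chr3:51409071-51409098: aaccttgtacTGAATGAAggtaggagtc
Cox8a, minus strand, chr19:7217817-7217844: cctagttaaaTGAATGGAgggaggagcc
Ndufb10, minus strand, chr17:24724432-24724459: ctgcccactaCGCAGGCGcagctgtcac
Ndufa8, minus strand, chr2:36049350-36049377: tagagcagtgCGCTTGCGcgtcgctgga
Ndufa12, plus strand, chr10:94198906-94198933: tccagctctgCGCCTGCGtagaacgacc
Atp5k, minus strand, chr5:108434431-108434458: ttcactgcggCGCATGCGcctttctggc
Ndufa11, plus strand, chr17:56717693-56717720: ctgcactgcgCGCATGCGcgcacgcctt

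A match describes letters in a window and no binding was measured. Of the octamer carriers, Ndufc1 was among the members that rose in Cic-L-KO cerebellum, and Cox8a was not called there (-0.05, edgeR adjusted p = 0.383). The ETS letters CCGGAAGT were in 3.85% of member promoters against 2.88% of all, GGGCGG, bound by SP1, in 38.5% against 32.7%, and TCAAGGTCA, bound by Esrra, in 1.28% against 0.387%.

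In Cic-S-KO cerebellum, 1 of 86 members was called (8.23% of all genes tested were called, 4.34% higher and 3.89% lower). Ndufb2, an accessory subunit of complex I, had 25.4, 27.5 and 30.0 CPM in WT and 20.5, 23.6 and 27.5 CPM in Cic-S-KO, with overlap. It fell by 0.20 (SE 0.054, edgeR adjusted p = 0.0206). The median over members was 0.04, and 11 of 86 had an unadjusted p under 0.05, all with a positive difference except Ndufb2. Of other genes between 524 and 1713 bases of principal transcript, 645 of 3672 had an unadjusted p under 0.05, a larger share. With Cic-L-KO as the reference, Cic-S-KO cerebellum had 1 member higher and 20 lower (12.4% of all genes tested were called, 6.06% higher and 6.38% lower). Cox6b2 differed by -0.65 (SE 0.092, edgeR adjusted p = 2.19e-05), Ndufv3, an accessory subunit beside the NADH site, by -0.18 (edgeR adjusted p = 0.00168) and Ndufc2 by -0.19 (edgeR adjusted p = 0.00286). The member in the other direction was Atp5g2 at 0.12.

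In the cortex of Cic-L-KO mice, members moved in both directions. Of 84 tested, 10 rose and 12 fell, 26.2% against 43.2% of all genes tested (21.4% higher and 21.9% lower), and the median was 0.01 for members and 0.01 for all genes. The balance of both directions rested on single libraries: with 1 library left out, 8 to 15 rose and 5 to 15 fell, with more higher than lower in 7 of 16 fits and more lower than higher in 7. It was 15 higher and 9 lower without WT replicate 4, 14 and 9 without WT replicate 6, and 11 and 5 without WT replicate 1. It was 10 and 6 without Cic-L-KO replicate 5, and 8 and 15 without WT replicate 7. The shares of all genes called in these fits are not given here. Among the complexes, 4 of 34 members of complex I rose and 3 fell, 1 and 4 of 14 in complex IV, 4 and 1 of 17 in complex V, and 3 of 8 assembly factors fell. In this tissue 6% of all genes had every Cic-L-KO library above every WT library and 7.25% below, and 1 member did so in each direction.

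These were Ndufv3 and Ndufaf1. Ndufv3 (ENSMUSG00000024038.16, plus strand, chr17:31520115-31531331) had 32.8, 35.2 and 37.6 CPM in WT cortex and 44.2, 47.4 and 51.1 CPM in Cic-L-KO, a difference of 0.42 (SE 0.039, edgeR adjusted p = 5.14e-10). Ndufaf1 (ENSMUSG00000027305.9, minus strand, chr2:119655446-119662827), a factor of complex I membrane arm assembly, had 22.4, 23.4 and 27.3 CPM in WT and 17.5, 19.9 and 21.04 CPM in Cic-L-KO. It fell by 0.30 (SE 0.052, edgeR adjusted p = 2.41e-05).

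Among the other members of Cic-L-KO cortex with large changes, Ndufab1, the mitochondrial acyl carrier protein, had 16.9, 18.2 and 19.9 CPM in WT and 19.8, 21.7 and 22.6 CPM in Cic-L-KO, with slight overlap (0.24, edgeR adjusted p = 0.00048). Cox7a2l fell from 85.8, 102 and 115 CPM to 75.5, 89.8 and 92.2 CPM, with overlap (-0.21, SE 0.050, edgeR adjusted p = 0.00137). Cox6b2 was called at 0.84 from a WT median of 1.24 CPM to 2.29 CPM. Atp5o (0.44, edgeR adjusted p = 0.00486) and Atp5l (0.27) were called too, but both are uncertain: Atp5o, at a WT median of 3.64 CPM, overlaps the entry Atp5o-readthrough, and how reads of overlapping or near-identical genes were counted is not given in the sources used here.

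Beside these values, 5 of 8 neuronal markers fell in Cic-L-KO cortex, with sums of 7738 to 8357 CPM in WT and 5689 to 6595 CPM in Cic-L-KO, without overlap. Of 10 pericyte and smooth muscle markers 4 rose, with sums of 104 to 161 CPM in WT and 142 to 183 CPM in Cic-L-KO, and of 6 endothelial markers 3 rose, with sums of 70.6 to 118 against 99.0 to 137 CPM. Of 7 microglial markers 3 rose (201 to 273 against 230 to 266 CPM), and of 6 astrocyte markers 2 (4103 to 5318 against 4512 to 5835 CPM). Of 4 choroid plexus markers Clic6 rose, with a list median of 1.57 and sums of 20.9 to 584 CPM in WT and 18.1 to 1280 CPM in Cic-L-KO. No oligodendrocyte marker of 7 was called by edgeR (1 at an unadjusted p under 0.05). Of 77 cytosolic ribosomal protein genes 50 fell and none rose, while 5 of 13 mitochondrially encoded subunits rose and none fell. Of the citric acid cycle genes, 5 rose and 1 fell of 17. The part of these cell types in the member values was not tested.

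In the cortex of Cic-S-KO mice, 12 of 84 members fell and 1 rose (15.5% called, against 6.53% of all genes tested, 2.83% higher and 3.7% lower), with a median of -0.07 against 0.00 for all genes. Uqcrh had 73.4, 80.2 and 90.4 CPM in WT and 67.1, 70.0 and 74.4 CPM in Cic-S-KO, with overlap (-0.19, edgeR adjusted p = 0.0084). Cox7b had 68.6, 80.8 and 87.9 CPM against 66.3, 69.3 and 76.6 CPM (-0.20, edgeR adjusted p = 0.0126), and Cox6c had 143, 174 and 200 CPM against 132, 150 and 168 CPM (-0.20, edgeR adjusted p = 0.0242). These ranges overlapped as well. The assembly factors Ndufaf1 (-0.19) and Ndufaf2 (-0.18) had every Cic-S-KO library below every WT library, as did 0.524% of all genes.

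The number of these cortex calls depended on single libraries. Leaving out 1 library at a time left between 2 and 16 members called. The count was 2 without WT replicate 1 and 2 without WT replicate 3, 3 without Cic-S-KO replicate 6, 5 without WT replicate 6, 6 without Cic-S-KO replicate 4 or 5, and 7 without WT replicate 8 or Cic-S-KO replicate 2 or 7. With only WT and Cic-S-KO libraries in the fit 2 were called. The shares of all genes called in these fits are not given here, so whether the shifts were particular to members is not known. Of 8 neuronal markers, Snap25 and Syt1 fell, with sums of 7738 to 8357 CPM in WT and 6914 to 7572 CPM in Cic-S-KO, without overlap. Of 7 oligodendrocyte markers, Mag and Mog rose and 6 had an unadjusted p under 0.05, with a list median of 0.24 and sums of 4771 to 6637 CPM in WT and 5111 to 7721 CPM in Cic-S-KO. Notch3 of 10 pericyte and smooth muscle markers rose and Tek of 6 endothelial markers fell. The part of these cell types in the member values was not tested. Tested against Cic-L-KO cortex, 1 member was higher and 27 were lower in Cic-S-KO (33.9% of all genes tested were called, 17.4% higher and 16.5% lower), with Ndufv3 at -0.40 (edgeR adjusted p = 3.69e-09), Uqcrh at -0.27 (edgeR adjusted p = 6.04e-06) and Atp5k at -0.26 (edgeR adjusted p = 4.29e-05). In that comparison 5 of 8 neuronal markers were higher in Cic-S-KO, 4 of 7 oligodendrocyte markers were higher and 1 lower, and 4 of 6 endothelial markers were lower, and their part was not tested.

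**Figure D3:**
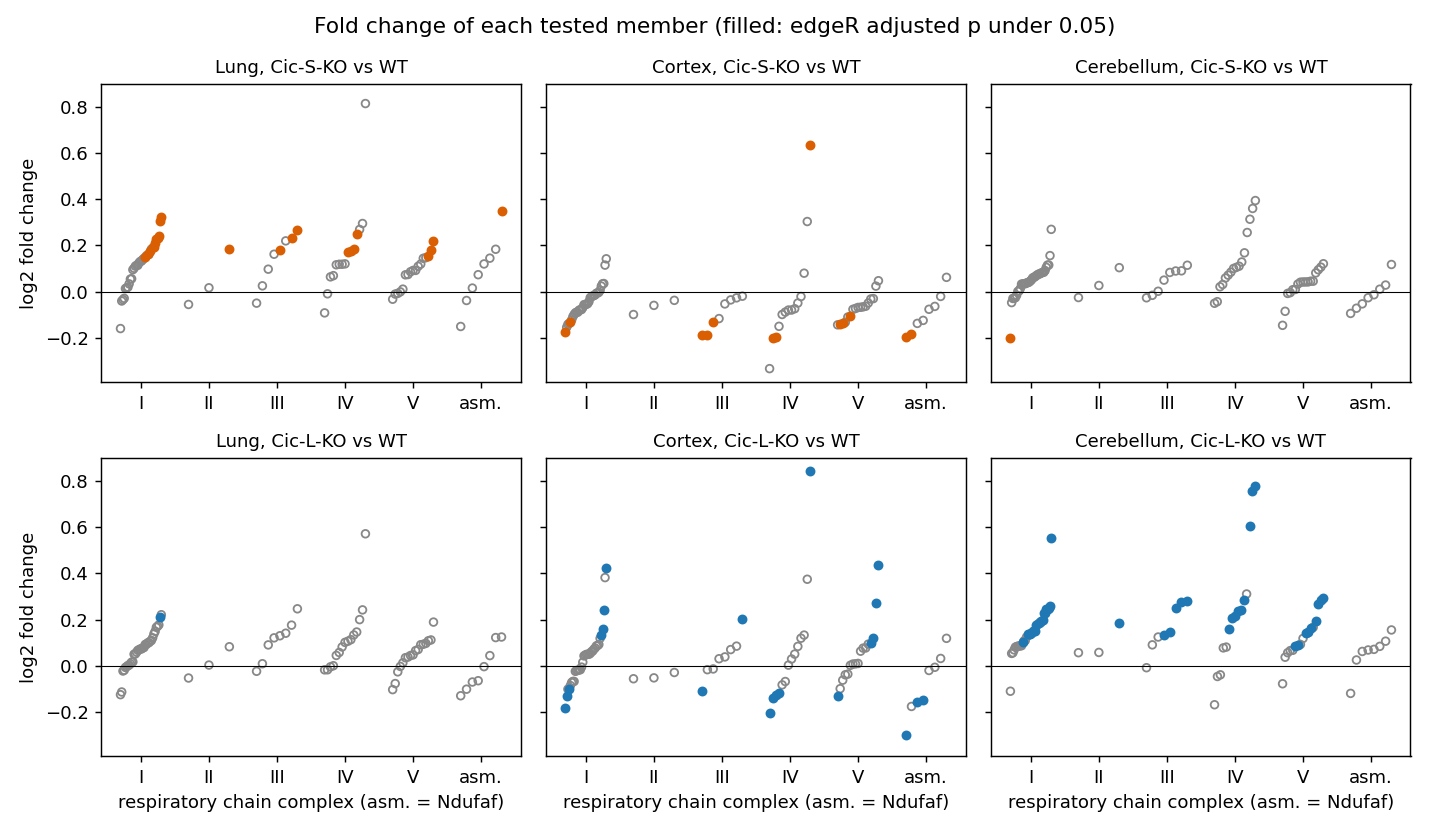
Log2 fold change against WT (y axis) of each tested member by complex (x axis, sorted within each, asm. for the Ndufaf genes), for Cic-S-KO in the upper and Cic-L-KO in the lower row; filled points have an edgeR adjusted p under 0.05. Filled points lie above 0 throughout the cerebellum Cic-L-KO panel (45 members, of which Cox8b at 1.20 is off the scale) and on both sides in the cortex Cic-L-KO panel (10 above, 12 below).

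An interaction term fitted to the 46 brain libraries tested whether a knockout's effect differed between cortex and cerebellum. The fit treated these libraries as independent, although same-numbered Cic-S-KO libraries of both regions correlated in their deviations at 0.15 to 0.26. With the library number as a block, 10 members were called for Cic-S-KO and 30 for Cic-L-KO, against 10 and 28 without it. For Cic-L-KO, 27 of 86 members had a lower and 1 a higher effect in cortex than in cerebellum (23% of all genes tested were called, 11.5% in each direction), with a median of -0.12. Cox7b differed by -0.37 (SE 0.064, edgeR adjusted p = 2.4e-05) and Cox6c by -0.42 (SE 0.077, edgeR adjusted p = 4.86e-05). Ndufv3 differed by 0.27 in the other direction (SE 0.051, edgeR adjusted p = 6.42e-05), since it rose by 0.42 in cortex and by 0.15 in cerebellum. For Cic-S-KO, 10 of 86 members had a lower effect in cortex and none a higher one (4.5% of all genes tested were called, 2.01% higher and 2.5% lower), with a median of -0.12. The smallest p-values were those of Cox6c (-0.37, edgeR adjusted p = 0.00506), Cox7b (-0.30, edgeR adjusted p = 0.00577) and Uqcrh (-0.28, edgeR adjusted p = 0.00857). The median of the cytosolic ribosomal protein genes was -0.15 in the Cic-L-KO interaction, where 31 of 77 were lower, and -0.16 in that of Cic-S-KO, where 18 were lower.

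In the lung of Cic-S-KO mice, 23 of 85 members rose and none fell (27.1% called, against 15.7% of all genes tested, 9.99% higher and 5.73% lower). The median was 0.12, a fold of 1.09, against 0.00 for all genes. Calls were spread over complex I (11 of 34), complex II (1 of 3), complex III (3 of 8), complex IV (4 of 15), complex V (3 of 17) and assembly factors (1 of 8). All Cic-S-KO libraries lay above all WT libraries for 1 member, against 1.51% of all genes. This was Sdhd, a membrane anchor of complex II, at 77.7, 79.3 and 81.6 CPM in WT and 81.7, 88.1 and 106 CPM in Cic-S-KO (0.18, edgeR adjusted p = 0.00775).

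Of the called members, the assembly factor Ndufaf8 had the largest difference (0.35, edgeR adjusted p = 0.0324), followed by small complex I subunits. Ndufa2 had 27.3, 36.0 and 46.8 CPM in WT lung and 41.1, 45.4 and 53.9 CPM in Cic-S-KO (0.32, SE 0.078, edgeR adjusted p = 0.00591). Ndufa1, an X-linked subunit of the membrane arm, had 20.5, 26.1 and 30.8 CPM against 28.9, 32.1 and 37.7 CPM (0.31, SE 0.072, edgeR adjusted p = 0.00479). Uqcrq of complex III had 40.6, 46.7 and 55.3 CPM against 53.4, 56.1 and 62.2 CPM (0.27, SE 0.053, edgeR adjusted p = 0.00122). In each case the lowest knockout library lay below the highest WT library. Cox4i1 (0.25, edgeR adjusted p = 0.0152) and Ndufs7, which carries an iron-sulfur cluster next to the quinone site (0.24, edgeR adjusted p = 0.0091), completed the largest changes.

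This lung result moved with transcript length. Over all other genes, in 20 bins of principal transcript length, the median difference between Cic-S-KO and WT ran from 0.10 at 492 bases and 0.13 at 849 bases down to -0.09 at 9208 bases. Other genes between 524 and 1713 bases had 579 higher and 33 lower of 3787, with a median of 0.09. When the median deviation of each library in each length bin was removed, 6 members were higher and 5 lower, with a median of 0.02. Those higher were Ndufa1, Ndufa13, Ndufa2, Ndufs7, Uqcrq and Atp5f1. Among those lower were Ndufa4l2 (-0.29, edgeR adjusted p = 0.00237), Cox4i2 (-0.22, edgeR adjusted p = 0.00321) and Sdhb (-0.17, edgeR adjusted p = 0.0258). The share of all genes called after this removal is not given here, so these counts have no background beside them.

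The median of short genes minus that of long genes was -0.08 ± 0.11 log2 units in WT lung (SD, n = 8), 0.09 ± 0.087 in Cic-S-KO (n = 8) and 0.00 ± 0.097 in Cic-L-KO (n = 8). The lowest WT library was replicate 2 at -0.29 and the highest Cic-S-KO library replicate 3 at 0.26. Without WT replicate 2 the count of called members was 12, and without Cic-S-KO replicate 3 it was 13. The shares of all genes called in these 2 fits are not given here.

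In the cerebellum of Cic-L-KO the same check lowered the median over members from 0.14 to 0.10. The median difference of other genes ran from 0.02 at 512 bases to -0.04 at 9318 bases, and other genes between 524 and 1713 bases had a median of 0.03, with 346 higher and 131 lower of 3672. After removal of the length trend, 40 of 86 members were higher and 1, Atp5g2, was lower (-0.13, edgeR adjusted p = 0.021), with a median of 0.10. Before that removal, 25 of 42 members up to 795 bases rose, with a median of 0.17. Of those above that length 20 of 44 rose, with a median of 0.09. The median of short genes minus that of long genes was -0.02 ± 0.048 log2 units in WT cerebellum (SD, n = 8). It was 0.03 ± 0.041 in Cic-L-KO cerebellum (n = 8). In cortex the trend over length was flat, and after its removal 8 members rose and 16 fell in Cic-L-KO. For cerebellum and cortex too, the shares of all genes called after removal are not given here.

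**Figure D4:**
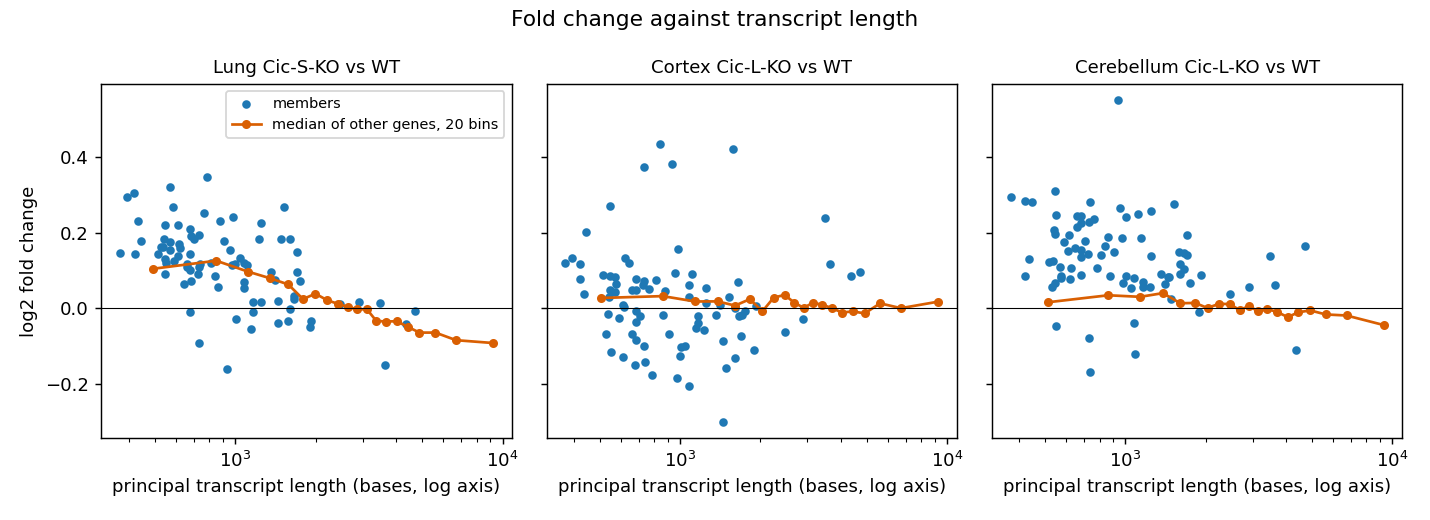
Log2 fold change of members (blue points) against principal transcript length in bases (x axis, log scale), with the median of other genes in 20 length bins (orange line), for 3 comparisons; members beyond 0.6 in either direction are off the scale. In lung Cic-S-KO the line falls from 0.10 to -0.09 and members follow it, and in cerebellum Cic-L-KO most members lie above a line that stays between 0.04 and -0.04.

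Inflammatory markers rose in the same lungs. Of 7 macrophage markers 5 rose, with sums of 126 to 179 CPM in WT and 188 to 306 CPM in Cic-S-KO, without overlap. Of 8 markers of lung immune cells 5 rose, at 58.5 to 194 CPM against 127 to 846 CPM, and 4 of 6 endothelial markers fell. Of the pericyte and smooth muscle markers, Abcc9 (-0.28), Myh11 (-0.26), Notch3 (-0.21) and Acta2 (-0.18) fell and none rose. Of the lung epithelium markers, Muc5ac (2.00), Scgb3a2 (0.84), Foxj1 (0.80), Epcam (0.20) and Hopx (0.15) rose and none fell. Of 18 entries for glycolysis genes 9 rose, with Aldoa at 0.32 and Aldoc at 0.60. None of 17 citric acid cycle genes was called by edgeR (0 at an unadjusted p under 0.05), and 17 of 77 cytosolic ribosomal protein genes rose. The part of these cell types in the member values was not tested.

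In the lung of Cic-L-KO mice, Ndufs7 was the member called (1 of 85, against 4.89% of all genes tested, 2.62% higher and 2.28% lower). It had 49.6, 54.1 and 62.2 CPM, against 41.2, 46.8 and 58.8 CPM in WT, with overlap (0.21, SE 0.063, edgeR adjusted p = 0.0476). Among the 85 members 15 had an unadjusted p under 0.05, against 693 of 3787 other genes between 524 and 1713 bases of principal transcript. The call of Ndufs7 was lost without a filter, with a non-robust fit, with GC bins and with 2 genotypes in the fit. It was kept with bins of principal transcript length (edgeR adjusted p = 0.0276) and of exon length (edgeR adjusted p = 0.0432). With other settings the count of called members was 0 to 4. Between both knockouts of the lung, Ndufaf3 was higher in Cic-S-KO by 0.25 (edgeR adjusted p = 0.022) and Cox4i2 lower (-0.17, edgeR adjusted p = 0.0386), where 12.2% of all genes tested were called, 7.31% higher and 4.85% lower. In that comparison the pericyte and smooth muscle markers Abcc9 (-0.76), Kcnj8 (-0.70), Myh11 (-0.43) and Notch3 (-0.23) were lower in Cic-S-KO and none was higher. Against WT, Kcnj8 (0.52) and Abcc9 (0.47) rose in Cic-L-KO lung. The part of these markers in the member values was not tested.

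Of 85 members tested in at least 2 tissues, 7 rose in Cic-L-KO in more than 1 tissue, 8.24% against 5.44% of 16566 genes. Atp5g1, Atp5k, Cox6b2, Ndufab1, Ndufv3 and Uqcr11 rose in cortex and cerebellum, and Ndufs7 in lung and cortex. The 6 shared by both brain regions were 60% of the members that rose in cortex and 13.3% of those that rose in cerebellum, against 20.8% and 41.5% for all genes. These shares rest on unlike bases. In cerebellum 45 of 86 members rose and in cortex 10 of 84, against 10.9% and 21.4% of all genes tested. The shares therefore do not show that members were shared more or less than other genes. No member was called in the same direction in all 3 tissues for either knockout. None fell in more than 1 tissue in Cic-L-KO (5.83% of all genes did), and none rose or fell in more than 1 tissue in Cic-S-KO (1.16% and 1.12% of all genes).

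The paired isoforms of single subunits differed widely between tissues in WT. Cox4i2, the lung and hypoxia form of subunit 4, was at 64.5 ± 6.52 CPM per kb in WT lung (SD, n = 8), 1.23 ± 0.214 in WT cortex and 2.75 ± 0.675 in WT cerebellum, while Cox4i1 was at 201 ± 22.7, 388 ± 27.2 and 376 ± 22.0. Ndufa4l2, a hypoxia-induced paralog of Ndufa4, was at 50.8 ± 3.03, 2.06 ± 0.82 and 1.48 ± 0.359 CPM per kb. For both, the WT lung mean lay far outside the SD of either brain region.

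Cox6b2 ordered differently, with 21.1 ± 3.98 CPM per kb in WT lung, 12.3 ± 1.0 in WT cerebellum and 2.27 ± 0.438 in WT cortex. In Cic-L-KO cerebellum it reached 20.8 ± 2.18 CPM per kb, within the SD of the WT lung level. Cox7a1 was at 11.4 ± 1.55 CPM per kb in WT cerebellum, 17.3 ± 3.0 in Cic-L-KO cerebellum and 3.19 ± 0.468 in WT cortex, close to the 3.17 ± 1.20 of WT lung. Cox6a2 was highest in WT cortex at 7.24 ± 0.743 CPM per kb, against 1.98 ± 0.63 in lung and 1.95 ± 0.549 in cerebellum.

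**Figure D5:**
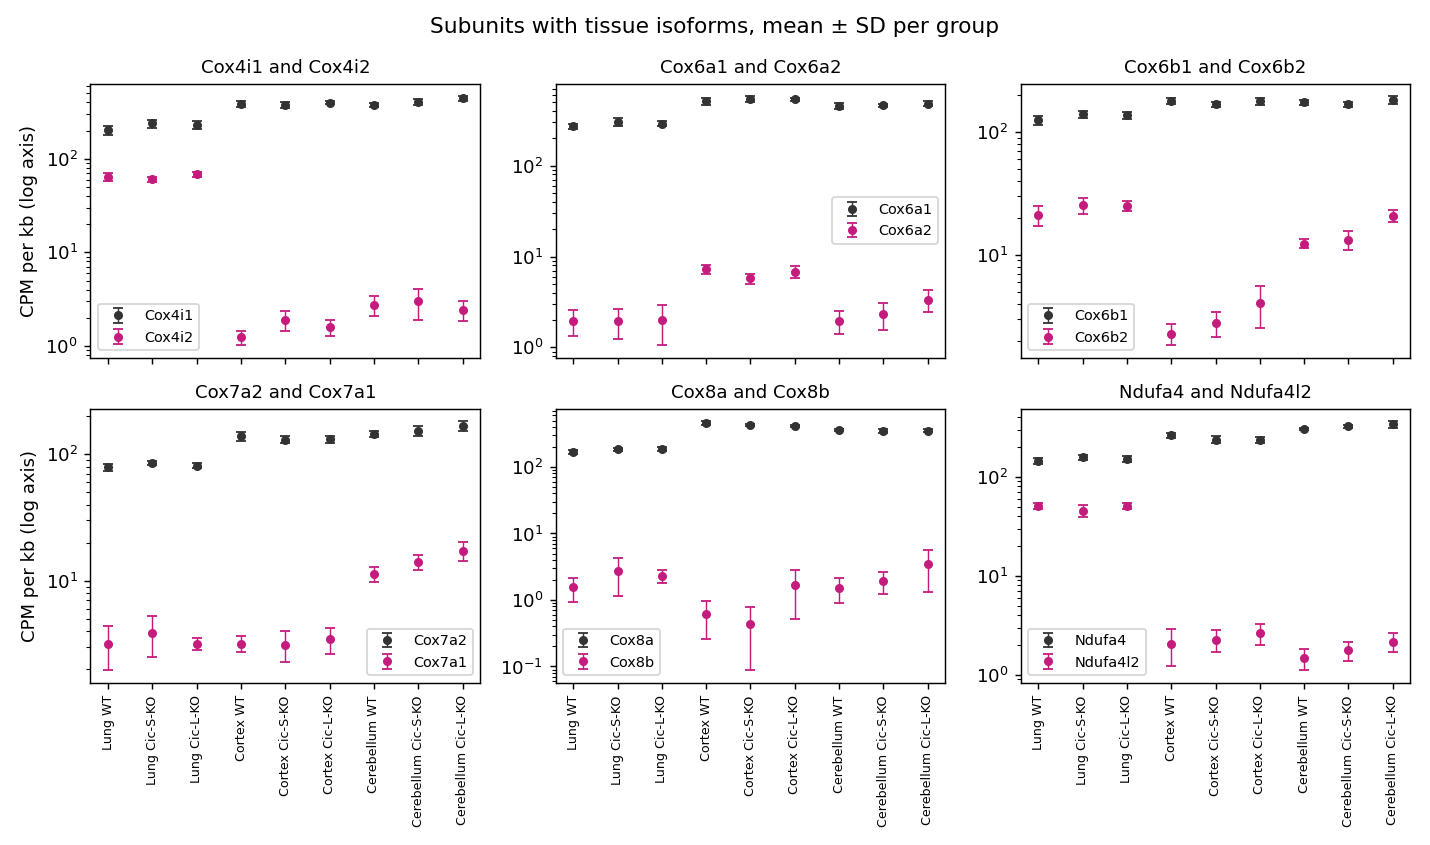
Level per kilobase of principal transcript (y axis, log scale) of paired subunit isoforms in the 9 groups (x axis); points are means and bars SD over libraries. Cox4i2 and Ndufa4l2 are high in the 3 lung groups, and Cox6b2 and Cox7a1 are highest among brain groups in Cic-L-KO cerebellum.

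Between WT cortex and WT cerebellum, 17 members were higher in cortex and 44 lower (70.9% called, against 73.5% of all genes tested, 35.4% higher and 38.2% lower), with a median of -0.10 against -0.04 for all genes. Atp5b (-0.41, edgeR adjusted p = 1.77e-20), Cox6b2 (-2.45, edgeR adjusted p = 4.41e-20) and Ndufb2 (-1.04, edgeR adjusted p = 1.26e-17) had the smallest p-values, and Sdha (-0.32) and Atp5a1 (-0.37) were lower in cortex as well. Cox6a2 (1.86) and Cox8a (0.32) were higher in cortex.

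Chromosome 7 carries Cic and 9 members, of which Cox7a1 and Cox6b1 lie closest, at 4.89 and 5.32 Mb. These are the 2 within 10 Mb of Cic, and the next, Cox6b2, lies at 20.5 Mb. The members with the largest differences in Cic-L-KO cerebellum, Cox8b, Cox6a2, Cox6b2 and Cox7a1, all lie on this chromosome. Cox6a2 and Cox8b are at 103 and 116 Mb from Cic. The part of this position in their differences was not tested. Without the 9 members of chromosome 7, 39 of 77 rose in Cic-L-KO cerebellum and 21 of 76 in Cic-S-KO lung, with medians of 0.14 and 0.12. Of all genes tested, 10.9% and 9.99% rose in these comparisons.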

How the data were processed

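Total RNA of flash-frozen tissue was polyA selected and sequenced, per the labels' protocols. The deposited values are whole-number counts per gene in 70 libraries, made by the authors with STAR 2.7 on GRCm38.p6, per the submitters' processing notes. The counting tool, annotation and strand setting are not given in the sources used here. Of 50789 identifiers, 50725 matched GENCODE M21 without version, which gave symbols, positions and lengths.

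Counts were tested with edgeR 4.0.16 in R 4.3.3 (filterByExpr, TMM, robust glmQLFit, glmQLFTest), per tissue with 3 genotypes, and over the 46 brain libraries for interactions and WT regions. CPM in comparisons are TMM scaled within a tissue and levels per kb over all libraries, and means of log2 CPM used a prior count of 2. Alternatives were DESeq2 1.42.0, RLE factors, other filters, a non-robust fit, 2 genotypes per fit, a fold minimum, a replicate block, and offsets for 20 bins of length or GC. The script was tested on simulated data. Principal transcript length and leave-one-out were added after seeing the data. Standard errors cover counting error and the spread between libraries together. Deviations of same-numbered cortex and cerebellum libraries correlated at 0.15 to 0.26 in all 7 Cic-S-KO pairs (6 best with their own number), 0.05 to 0.24 in 8 WT pairs (3 best) and -0.0048 to 0.20 in 8 Cic-L-KO pairs (1 best), and the labels do not say whether they share an animal. No library pair within a group was identical among 84 lung, 77 cortex and 77 cerebellum pairs.

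Members, lists and tests were chosen with earlier results of these data known. Named members were for each knockout the 6 called ones with the largest change (mean log2 CPM not under 1), the 3 with the smallest p in other contrasts, those called in all 3 tissues, the isoform pairs and core subunits. Further members are named because their groups did not overlap or as examples of a complex, chosen after their values were seen.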

Additional observations from a re-analysis of the deposited data

Results flagged for a closer look

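Among 115 groups of values examined, 11 held a library far from the others of its group, where chance gives about 5.75. In lung, WT replicate 2 had a mean of 5.14 log2 CPM over members, against 5.31 to 5.46 in the other WT libraries, and 4.55 over complex IV, against 4.89 to 5.13. In cortex, WT replicate 7 had 5.49 over members (others 5.57 to 5.63), 6.07 over complex III (others 6.22 to 6.27), 4.96 over complex IV (others 5.09 to 5.17) and 6.21 over complex V (others 6.30 to 6.37). In cerebellum, Cic-S-KO replicate 6 had 7.58 over complex II, against 7.48 to 7.52.

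Single genes gave the remaining 4. Ndufa1 was at 37.7 CPM in lung Cic-S-KO replicate 3, against 28.9 to 32.8 in the others. Atp5l was at 12.2 CPM in cortex WT replicate 6, against 7.48 to 9.53. Atp5k was at 52.0 CPM in cerebellum Cic-L-KO replicate 4, against 37.5 to 44.3. Cox6c was at 139.7 CPM in cerebellum WT replicate 4, against 154 to 164.

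Knockout effects that differed between cortex and cerebellum by edgeR's interaction test were also set apart. For Cic-S-KO these were 10 members, among them Cox6c (-0.37), Cox7b (-0.30) and Uqcrh (-0.28). For Cic-L-KO they were 28 members, among them Cox7b (-0.37), Cox6c (-0.42), Ndufv3 (0.27), Ndufaf1 (-0.38) and Atp5e (-0.21). Without cortex WT replicate 7, 15 members were called in Cic-S-KO cortex against WT, where 13 were called with it. The share of all genes called without that library is not given here.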

How the results depend on the processing

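Under the alternatives run, no call of a named member turned into a call in the other direction. Differences that were not called could change sign. With principal transcript length bins, Uqcrc1 in Cic-S-KO lung went from 0.03 to -0.03 and Cox5a from 0.06 to -0.05. The balance of higher against lower calls turned in Cic-L-KO cortex (10 against 12). It was 20 against 11 with a mean of at least 50 counts and 6 against 2 with the fold minimum described next. Of the values of named members, 77 lost a call, 19 of them with GC bins and 18 with no filter on low counts, and 742 did not. Calls gained are not counted apart, such as Sdhb in Cic-S-KO lung and Atp5g2 in Cic-L-KO cerebellum with principal transcript length bins. In Cic-L-KO cerebellum the 45 calls were 40 to 50 with 1 library left out, 22 with a log2 fold change of at least 0.2 also required, and the median was 0.098 with length bins. In Cic-S-KO lung the 23 calls were 12 to 31 with 1 library left out, 15 without a filter, 12 with exon length bins, 11 with principal transcript length bins (median 0.018) and 11 with the fold minimum. In Cic-S-KO cortex the 13 calls were 2 to 16 with 1 library left out, 4 without a filter, 7 with GC bins, 2 with 2 genotypes in the fit and 2 with the fold minimum. In Cic-L-KO cortex the 22 calls were 16 to 24 with 1 library left out and 8 with the fold minimum, and between both knockouts of cortex 28 became 10 with that minimum. In Cic-L-KO lung the single call became 2 with RLE factors, 2 with a mean of at least 50 counts, 2 with principal transcript length bins, 3 with DESeq2, and 0 without a filter, with a non-robust fit, with GC bins and with 2 genotypes. Between both knockouts of lung 2 calls became 0 without a filter and 1 with the fold minimum. In Cic-S-KO cerebellum 1 call became 2 with 2 genotypes and 3 with DESeq2. Between both knockouts of cerebellum 21 calls became 32 with a mean of at least 50 counts, 32 with DESeq2, 13 with 2 genotypes and 2 with the fold minimum. A fold minimum can only lower a count, and the cause of the other shifts was not tested. The shares of all genes called under these alternatives are not given here.

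With the replicate block, there were 4 calls in the lung of Cic-L-KO, 5 in the cortex of Cic-S-KO, 0 in the cerebellum of Cic-S-KO and 12 between both knockouts of cerebellum. Block and pairs of genotypes here follow the replicate number. In both brain regions Cic-S-KO replicates 2 to 7 carry library numbers 3 to 8, so there they do not match the library numbers of the other genotypes. Deviations of libraries of different genotypes with the same replicate number correlated at -0.053 to 0.346 in lung (mean 0.146). In lung 12 of 24 pairs correlated best with their own number. The range was -0.140 to 0.294 in cortex (mean 0.0777, 5 of 22 pairs) and -0.386 to 0.304 in cerebellum (mean 0.0222, 2 of 22 pairs). No tissue had every pair over 0.1 and the labels tie the numbers to no animal or day, so whether a number marks a shared source, in lung above all, is not known. With the library number as a block within genotype over both brain regions, 10 members differed for Cic-S-KO, 30 for Cic-L-KO and 61 between WT regions, against 10, 28 and 61 without it, and of the members named in these 3 comparisons Ndufa4l2 between WT regions lost its call.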
